A study of Mus musculus with 4 samples.

Results

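The genes that write, erase and read lysine acetylation were examined in mouse embryonic fibroblasts (MEFs) by RNA sequencing. The set held 38 of the 36846 gene symbols in the deposited transcript table: 18 deacetylases, 9 corepressor subunits, 9 acetyltransferases and 2 acetyl readers. They were listed by function, and the counts of their 319 RefSeq transcripts were summed per symbol. Both groups were C57BL/6 MEF lines at passage 4, derived from embryos of day 13.5 to 14.5 of crosses between Dnmt3l heterozygotes. The fibroblasts lacked Dnmt3l (Dnmt3l-KO, 2 libraries) or were wild type (WT, 2 libraries). The study asked which genes differ between these MEFs as donor cells for nuclear transfer. The sources used here neither describe the deleted allele nor say whether separate embryos gave the libraries of a genotype. All p-values thus rest on the spread between the libraries as they are, and that spread may be technical.

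Acetyltransferases add acetyl groups to lysines of histones and other proteins, which loosens chromatin and creates docking sites for bromodomain proteins. Deacetylases remove them, the zinc-dependent classes I, II and IV by hydrolysis and the sirtuins at the cost of NAD. The class I enzymes Hdac1, Hdac2 and Hdac3 act inside corepressor complexes such as SIN3, NuRD and NCoR. DNMT3L, the catalytically inactive partner of the de novo DNA methyltransferases, has been reported to bind histone deacetylases, and inhibitors of deacetylases are widely used to improve cloning by nuclear transfer.

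The promoters of the set were rich in CG, the dinucleotide that DNA methyltransferases modify. RefSeq (GRCm38.p6) gave windows of 300 bases, 250 before and 50 after an annotated start, for 33 of the 38 genes, 50 windows in all. The motif searched was CG, which reads the same on both strands. The windows of the set held a median of 20.5 CG, against 7 over all 32851 promoter windows, of which 94.6% held at least 1. At least 20 CG stood in 54% of the set's windows and in 26.5% of all windows. All windows were taken whether or not their genes are expressed in these cells, and windows of expressed genes alone were not compared. Shown here, 5′ to 3′ with each CG in capitals, are the entries of 3 of the 4 genes that stood furthest from equality between the genotypes by p-value, and of Hdac9, the least abundant gene of the set, as a contrast. The Mta1 window (chr12:113098028-113098327, plus strand) held 50 CG, the Kat2a window (chr11:100712418-100712717, minus strand) held 19, the Crebbp window (chr16:4213355-4213654, minus strand) held 49 and the Hdac9 window (chr12:34528840-34529139, minus strand) held 3. Where a gene had several windows, the richest in CG is shown, and the other Hdac9 window held 0 CG.
Mta1: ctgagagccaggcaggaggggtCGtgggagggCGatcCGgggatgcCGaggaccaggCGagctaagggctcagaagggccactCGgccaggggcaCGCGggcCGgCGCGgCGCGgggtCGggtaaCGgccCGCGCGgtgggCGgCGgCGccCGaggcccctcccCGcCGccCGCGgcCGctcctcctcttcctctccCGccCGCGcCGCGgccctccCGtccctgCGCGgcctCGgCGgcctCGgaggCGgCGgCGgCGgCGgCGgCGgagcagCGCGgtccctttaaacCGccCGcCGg
Kat2a: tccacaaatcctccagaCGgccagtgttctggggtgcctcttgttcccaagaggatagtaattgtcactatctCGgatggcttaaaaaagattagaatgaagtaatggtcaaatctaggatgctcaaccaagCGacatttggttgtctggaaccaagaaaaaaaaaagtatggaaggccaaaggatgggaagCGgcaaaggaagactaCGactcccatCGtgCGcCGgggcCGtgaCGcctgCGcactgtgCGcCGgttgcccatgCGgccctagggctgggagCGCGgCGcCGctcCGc
Crebbp: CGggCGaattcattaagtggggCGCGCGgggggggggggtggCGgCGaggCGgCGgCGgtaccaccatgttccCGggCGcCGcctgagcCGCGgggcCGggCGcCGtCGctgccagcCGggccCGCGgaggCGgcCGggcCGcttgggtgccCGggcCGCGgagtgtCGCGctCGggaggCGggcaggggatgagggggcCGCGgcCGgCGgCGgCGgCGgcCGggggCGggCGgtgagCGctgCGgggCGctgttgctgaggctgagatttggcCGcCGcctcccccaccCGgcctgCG
Hdac9: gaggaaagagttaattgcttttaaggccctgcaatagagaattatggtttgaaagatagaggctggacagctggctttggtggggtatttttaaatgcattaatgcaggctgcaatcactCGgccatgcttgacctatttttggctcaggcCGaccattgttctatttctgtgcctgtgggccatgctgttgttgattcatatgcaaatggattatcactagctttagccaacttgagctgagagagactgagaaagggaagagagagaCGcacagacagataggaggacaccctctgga
Methylation was not measured in these libraries, so the windows describe base content only.

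Total estimated counts ranged from 40681328 to 51465395 per library. Dnmt3l had 0 and 0 counts in the Dnmt3l-KO libraries, against 6 counts and 1 count in the WT libraries. These values lie around 3 counts, the upper limit that a count of 0 allows, so they do not check the genotype labels. Of 13 fibroblast markers, 12 were above 1 CPM in all 4 libraries (for markers, counts scaled to a common library total). Their summed level was 19073 to 25802 CPM in Dnmt3l-KO and 18579 to 20884 CPM in WT. The sum hides a spread between the Dnmt3l-KO libraries, since 10 of the 13 markers were lowest of all in Dnmt3l-KO replicate 1 and highest of all in Dnmt3l-KO replicate 2. The collagen gene Col3a1 had 184 and 919 CPM in Dnmt3l-KO, against 465 and 374 CPM in WT, and the receptor gene Pdgfra had 16.7 and 67.2 CPM in Dnmt3l-KO, against 23.0 and 39.3 CPM in WT. Markers of leukocytes summed to 4.35 to 4.59 CPM in Dnmt3l-KO and 3.87 to 4.04 CPM in WT, with Cd3e at 0 in every library. Markers of pluripotent cells summed to 0.098 to 0.602 CPM in Dnmt3l-KO and 0.251 to 0.536 CPM in WT. Endothelial markers summed to 6.15 to 18.0 CPM in Dnmt3l-KO and 7.39 to 9.62 CPM in WT, muscle markers to 16.7 to 26.4 CPM and 16.7 to 17.2 CPM, and neural markers to 49.7 to 70.2 CPM and 53.3 to 57.0 CPM, in the same order of genotypes. Epithelial markers summed to 3.86 to 5.48 CPM in Dnmt3l-KO, below the 5.75 to 7.41 CPM of WT. Nearly all of that sum was Krt18, with 5.29 and 3.69 CPM in Dnmt3l-KO and 7.24 and 5.65 CPM in WT. Krt5 and Krt14 were at 0 in every library and Cdh1 overlapped between the genotypes. Epcam went the other way, with 0.097 and 0.172 CPM in Dnmt3l-KO and 0.063 and 0.049 CPM in WT. Likewise, the endothelial sums were mostly Kdr and the muscle sums mostly Des. The part of this spread and of other cell types in the differences given here was not tested, and in bulk RNA fewer cells of a type and less RNA per cell cannot be told apart.

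No gene of the set passed the test between the genotypes. All 38 genes were measured well enough to be tested, and 0 were called at an adjusted p under 0.05 (edgeR quasi-likelihood test with Benjamini-Hochberg adjustment), where 0.0203% of all 14760 genes tested were called. At an unadjusted p under 0.05, 4 genes were higher in Dnmt3l-KO (2.34% of all genes) and 0 were lower (1.81% of all genes). The 4 were Kat2a, Mta3, Mta1 and Crebbp, each with an adjusted p of 0.999. DESeq2's Wald test also called 0 of the 38, with 0.166% of its tested genes called, and 4 had an unadjusted p under 0.05. With edgeR, the count of 4 was 10 without Dnmt3l-KO replicate 1, 9 without Dnmt3l-KO replicate 2, 1 without WT replicate 1 and 0 without WT replicate 2.

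The log2 fold changes of Dnmt3l-KO over WT were small and more often positive than negative. They ran from -0.42 for Sirt5 to 0.37 for Hdac9, and 27 of 38 were above 0, against 51.3% of all genes. The median was 0.15 for the set and 0.0062 for all genes. In 16 genes both Dnmt3l-KO libraries lay above both WT libraries (16.2% of all genes), in 2 both lay below (16.5% of all genes), and in 20 the genotypes overlapped. The standard errors ran from 0.085 to 0.28 with a median of 0.11. The 95% interval lay within a 2-fold change either way for 36 of the 38 genes and within 1.5-fold for 25 of them.

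**Figure D1:**
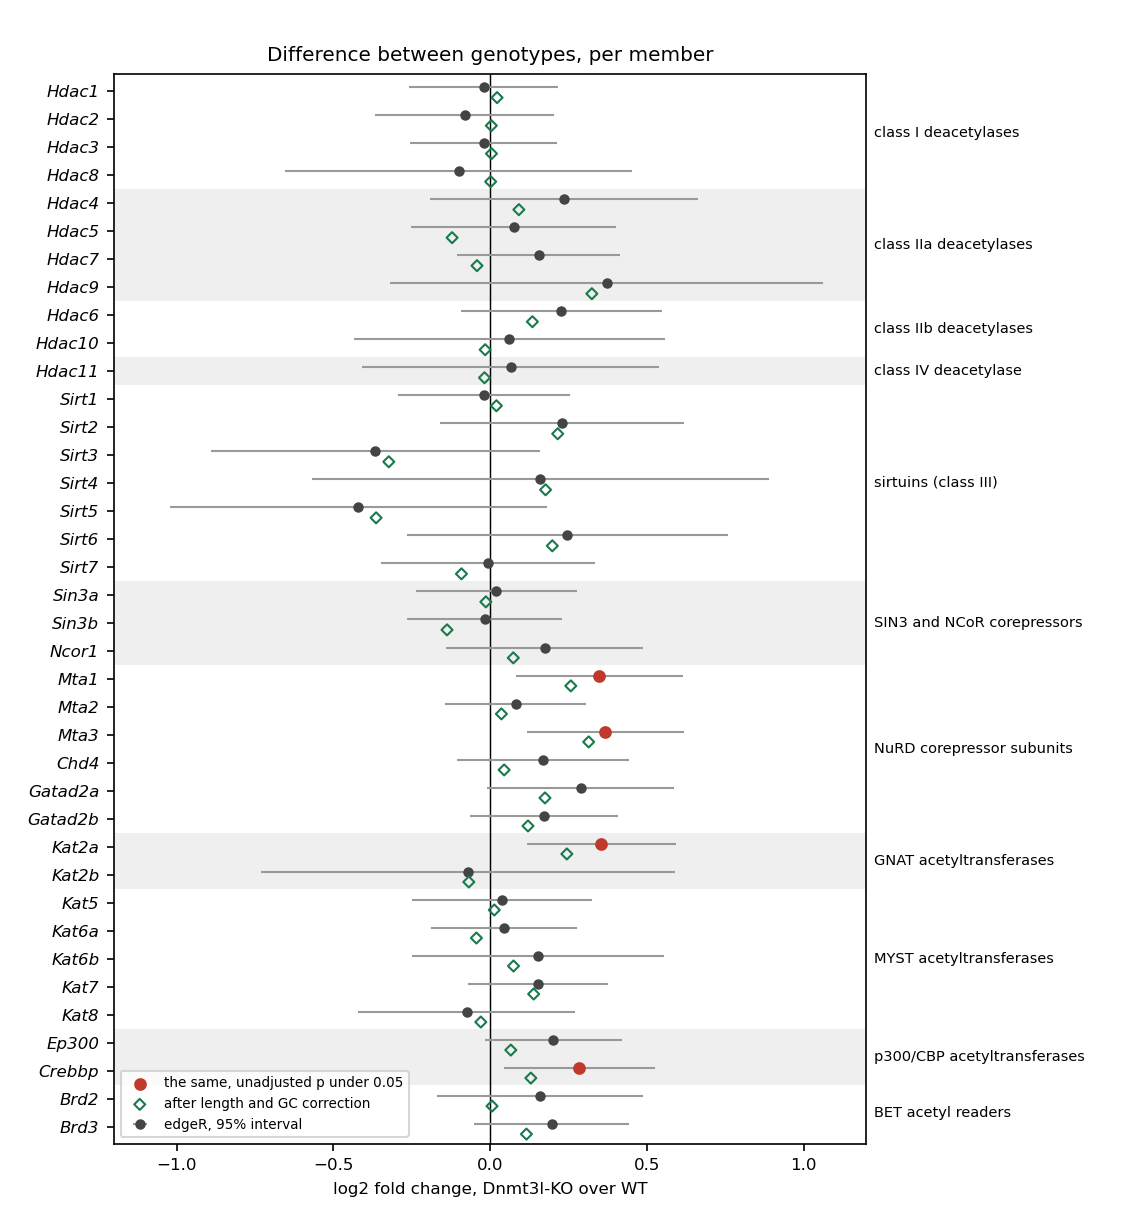
Log2 fold change of Dnmt3l-KO over WT (x axis) for each of the 38 genes (rows, grouped by class). Filled points are edgeR estimates with 95% intervals, larger red points are the 4 genes with an unadjusted p under 0.05, and open diamonds are the estimates after correction for length and GC content. Intervals of the other 34 genes hold 0, and 31 of the 38 diamonds lie nearer to 0 than their filled points.

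The positive median moved with the sequence content of the genes and with a single library. Across 13295 genes, the log2 fold change had a Spearman correlation of 0.27 with transcript GC content and of 0.21 with transcript length, a description over genes that share the same 4 libraries. Beside them, the set had a median GC content of 52.3%, against 49.7% for all genes, and a median length of 3850 bases, against 3401. After each library was corrected for both, the set's median log2 fold change was 0.029 with 26 genes above 0, and Mta3 and Kat2a remained at an unadjusted p under 0.05. Without Dnmt3l-KO replicate 2 the median was 0.0092 with 20 genes above 0, and without Dnmt3l-KO replicate 1 it was 0.14 with 34 genes above 0. The part of GC content, length or that library in the median was not tested.

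**Figure D2:**
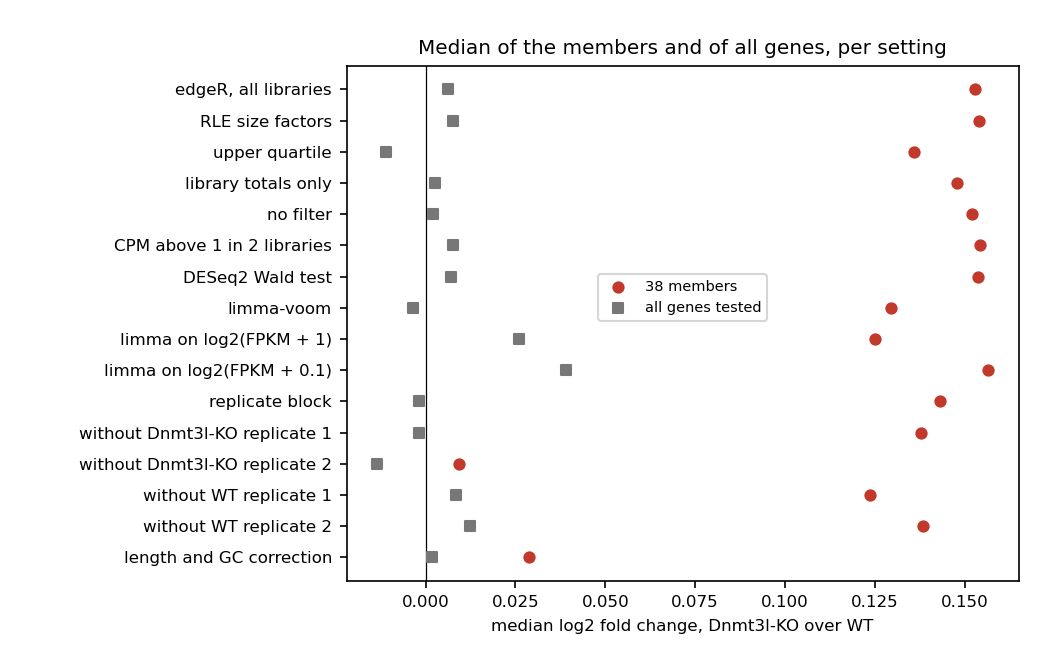
Median log2 fold change of Dnmt3l-KO over WT (x axis) for the 38 acetylation genes (red circles) and for all genes tested (grey squares) under each way of processing the counts (rows). The set's median lies between 0.12 and 0.16 in every row except without Dnmt3l-KO replicate 2 (0.0092) and after the length and GC correction (0.029).

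All 38 genes were detected in all 4 libraries, at widely different levels per transcript length (FPKM, as the authors deposited them, summed over the transcripts of a gene). Sin3b was the most abundant at 57.8 ± 0.931 FPKM in Dnmt3l-KO and 59.7 ± 4.63 FPKM in WT (SD, n = 2 each). Its place rests on a short transcript, NM_001113248.2, which received 68.3% of the gene's counts in Dnmt3l-KO and 73.1% in WT. Chd4 and Brd2 came next, ahead of Hdac1 and Hdac2, whose levels did not differ beyond their spread. Hdac9 was the least abundant at 0.962 ± 0.0187 FPKM in Dnmt3l-KO and 0.723 ± 0.32 FPKM in WT.

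**Figure D3:**
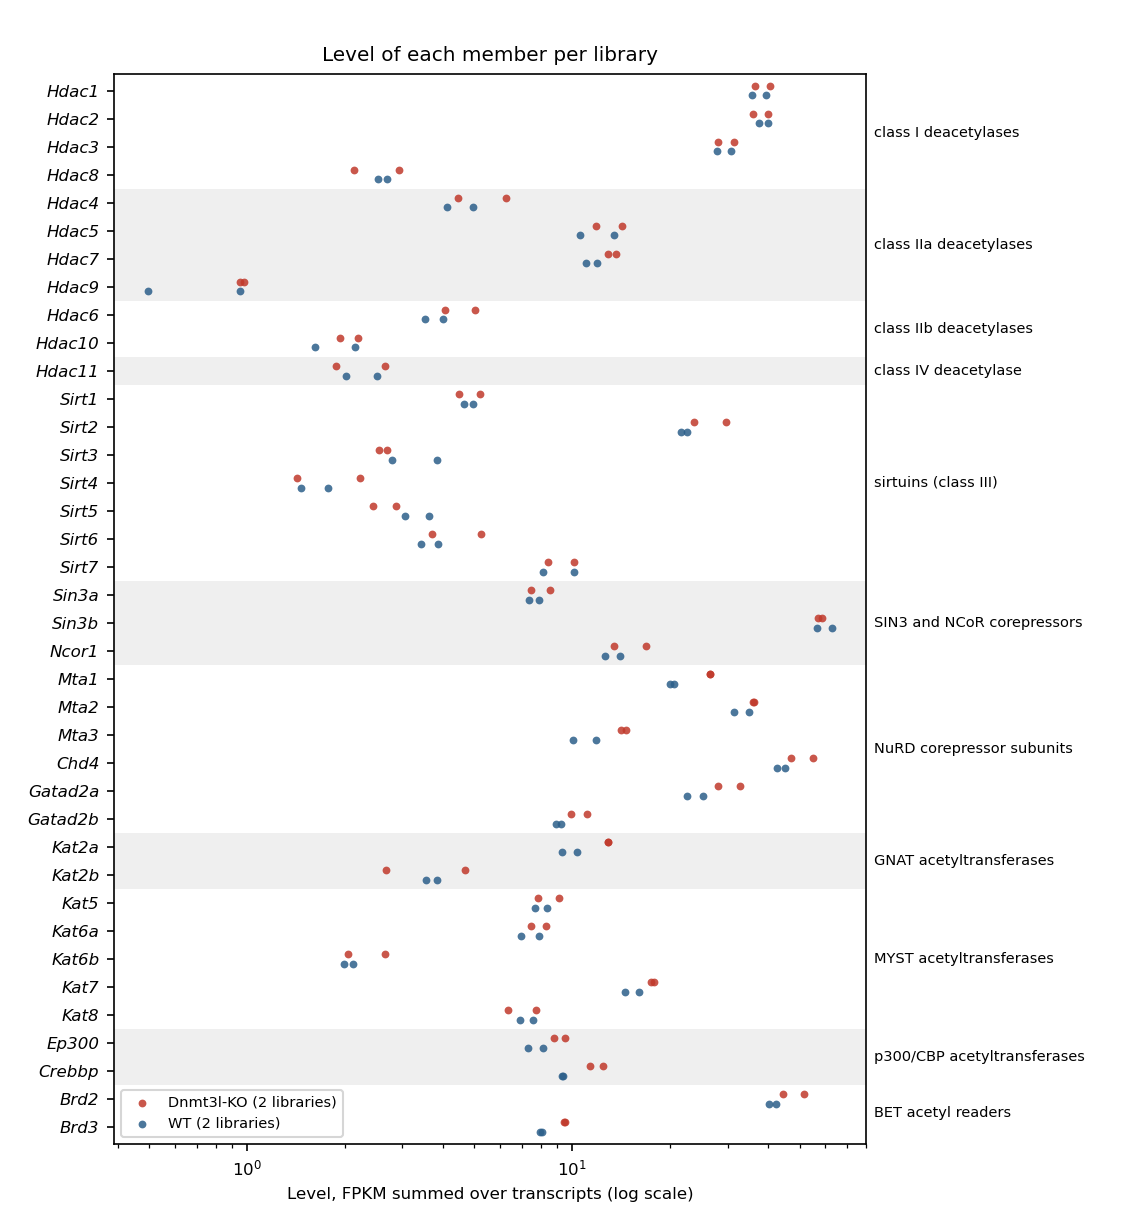
Level of each of the 38 genes in FPKM (x axis, log scale) per library, with Dnmt3l-KO points (red) drawn above WT points (blue) in each row. Within a gene the 4 libraries lie close together compared with the spread between genes, and the red points lie right of the blue ones for every NuRD, p300/CBP and BET gene.

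The class I deacetylases Hdac1, Hdac2 and Hdac3, the nuclear enzymes of the large corepressor complexes, lay close together in the genotypes. With Hdac8 included, the summed level of the class was 102.4 and 114.9 FPKM in Dnmt3l-KO, against 105.8 and 110.6 FPKM in WT. Hdac2, with Hdac1 the catalytic pair of SIN3 and NuRD, had 79.2 and 84.4 CPM (from here on with TMM normalization) in Dnmt3l-KO, against 93.0 and 80.04 CPM in WT. The log2 fold change of Hdac2 was -0.081 ± 0.11 (SE). Hdac1 had 77.3 and 84.7 CPM in Dnmt3l-KO, against 81.7 and 82.8 CPM in WT. Hdac3, the enzyme of the NCoR complexes, had 62.0 and 66.8 CPM in Dnmt3l-KO, against 65.0 and 65.7 CPM in WT. For all of these genes the genotypes overlapped, and the 95% interval of the Hdac1 log2 fold change reached only from -0.26 to 0.22. Hdac8, which deacetylates the cohesin ring, was the lowest of the class, with 4.17 and 5.55 CPM in Dnmt3l-KO and 5.14 and 5.27 CPM in WT, and the Dnmt3l-KO libraries enclosed the WT ones. The 95% interval of its log2 fold change was wider, from -0.65 to 0.45. All 4 log2 fold changes lay between -0.10 and -0.021, and after the length and GC correction all 4 lay between 0.0015 and 0.022.

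Of the 7 class II and IV deacetylases, 3 lay above WT in both Dnmt3l-KO libraries (16.2% of all genes tested) and 4 overlapped. Class IIa enzymes shuttle between nucleus and cytoplasm and recruit class I complexes to transcription factors. Hdac5 and Hdac7 were the most abundant of them, at close levels. Hdac5, a signal-responsive repressor, had 50.1 and 57.7 CPM in Dnmt3l-KO and 47.4 and 54.9 CPM in WT, and the genotypes overlapped. Hdac7, known from vascular development, had 62.4 and 55.8 CPM in Dnmt3l-KO and 53.9 and 52.4 CPM in WT. Hdac9, a repressor of muscle genes, had 5.43 and 5.45 CPM in Dnmt3l-KO and 3.27 and 5.15 CPM in WT. Hdac7 and Hdac9 lay above WT in both Dnmt3l-KO libraries, but after the length and GC correction the log2 fold change of Hdac7 was -0.042, against 0.15 before it, and the Hdac9 difference came from WT replicate 1. Its log2 fold change of 0.37 ± 0.27 (SE) had a 95% interval from -0.32 to 1.06, and without WT replicate 1 the log2 fold change was 0.078. Hdac4, which controls chondrocyte maturation, had 37.6 and 50.2 CPM in Dnmt3l-KO and 35.2 and 39.3 CPM in WT. In class IIb, the tubulin deacetylase Hdac6 had 18.3 and 21.5 CPM in Dnmt3l-KO, above its 16.7 and 17.3 CPM in WT, with a log2 fold change of 0.23 ± 0.13 (SE). The polyamine deacetylase Hdac10 had 5.13 and 5.60 CPM in Dnmt3l-KO and 4.65 and 5.63 CPM in WT. Hdac11, the sole class IV enzyme, had 5.09 and 5.84 CPM in Dnmt3l-KO and 5.50 and 4.94 CPM in WT. Hdac4, Hdac10 and Hdac11 overlapped between the genotypes.

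The 7 sirtuins went both ways. Sirt2, a mainly cytoplasmic deacetylase and the most abundant of the class, had 59.4 and 45.6 CPM in Dnmt3l-KO and 46.0 and 43.7 CPM in WT, so Dnmt3l-KO replicate 1 stood above the other 3 libraries. The overall log2 fold change was 0.23 ± 0.15 (SE). The mitochondrial desuccinylase Sirt5 had 3.97 and 4.71 CPM in Dnmt3l-KO and 6.69 and 4.91 CPM in WT. Its log2 fold change of -0.42 ± 0.24 (SE) was the lowest of the set, with an unadjusted p of 0.133 (edgeR, adjusted p = 0.999). Sirt3, the main deacetylase of mitochondria, had 4.15 and 3.87 CPM in Dnmt3l-KO and 4.65 and 5.70 CPM in WT. Its difference came to -0.37 ± 0.21 (SE) on the log2 scale, at the same unadjusted p of 0.133. Sirt5 and Sirt3 were the only genes of the 38 with both Dnmt3l-KO libraries below both WT libraries (16.5% of all genes tested). Sirt4, the remaining mitochondrial sirtuin and the lowest of the class, had 2.43 and 3.61 CPM in Dnmt3l-KO and 2.59 and 2.80 CPM in WT, and the genotypes overlapped. The nuclear sirtuins Sirt1, Sirt6 and Sirt7 overlapped too, with log2 fold changes of -0.019, 0.25 and -0.0076.

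Among the corepressors, the SIN3 scaffolds were even between the genotypes. Sin3b had 90.3 and 81.3 CPM in Dnmt3l-KO and 87.9 and 85.9 CPM in WT, and its paralog Sin3a, a scaffold for Hdac1 and Hdac2, had 41.6 and 45.7 CPM in Dnmt3l-KO and 43.5 and 42.6 CPM in WT. The genotypes overlapped for both, with log2 fold changes of -0.018 and 0.019. Ncor1, the nuclear receptor corepressor that activates Hdac3, had 116 and 141 CPM in Dnmt3l-KO and 114 and 113 CPM in WT. The Dnmt3l-KO libraries lay above WT, by much less in replicate 1 than in replicate 2. The log2 fold change was 0.17 ± 0.12 (SE), and 0.025 without Dnmt3l-KO replicate 2.

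All 6 NuRD subunits of the set had both Dnmt3l-KO libraries above both WT libraries, as did 16.2% of all genes tested. NuRD subunits outside the set did not all follow, as given below. NuRD couples deacetylation by Hdac1 and Hdac2 to an ATP-driven nucleosome remodeller. The summed level of the 6 subunits was 166 and 171 FPKM in Dnmt3l-KO, against 136 and 146 FPKM in WT. With 2 libraries against 2, the smallest two-sided exact permutation p is 0.333, so the sum was not tested. Mta1 (chromosome 12, 113098248 to 113137206, GRCm38.p6), a scaffold that binds the deacetylase, had 78.9 and 76.2 CPM in Dnmt3l-KO and 64.9 and 56.9 CPM in WT. This was a log2 fold change of 0.35 ± 0.10 (SE), with an unadjusted p of 0.0199 (edgeR, adjusted p = 0.999). Mta3 (chromosome 17, 83706163 to 83823715), its paralog, had 29.2 and 28.3 CPM in Dnmt3l-KO and 21.7 and 22.9 CPM in WT. The log2 fold change of Mta3 was 0.37 ± 0.098 (SE), with an unadjusted p of 0.0131. In both genes the replicates of a genotype lay closer together than the genotypes did. Mta2, the most abundant of the 3 paralogs, had 125 and 119 CPM in Dnmt3l-KO and 115 and 117 CPM in WT, with a log2 fold change of 0.082 ± 0.088 (SE). The ratio of Mta3 to Mta2, in FPKM, was 0.391 and 0.408 in Dnmt3l-KO and 0.321 and 0.338 in WT, and that of Mta1 to Mta2 was 0.732 and 0.739 in Dnmt3l-KO and 0.654 and 0.572 in WT. Both ratios were higher in both Dnmt3l-KO libraries.

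The remodeller Chd4, the most abundant NuRD gene of the set, had 339 and 379 CPM in Dnmt3l-KO and 324 and 315 CPM in WT. Gatad2a, which joins the remodeller to the rest of the complex, had 152 and 127 CPM in Dnmt3l-KO and 114 and 114 CPM in WT. That gave a log2 fold change of 0.29 ± 0.12 (SE), with an unadjusted p of 0.0559. Its paralog Gatad2b had 80.6 and 86.2 CPM in Dnmt3l-KO and 76.1 and 72.0 CPM in WT. In these genes the lower Dnmt3l-KO library lay nearer to the higher WT library than to the other Dnmt3l-KO library. After the length and GC correction the log2 fold changes of the 6 NuRD genes of the set ran from 0.036 to 0.31. They also stayed above 0 when any library was left out. That sign was largely fixed beforehand, because both Dnmt3l-KO libraries lay above both WT libraries in each gene.

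Of the 9 acetyltransferases, 4 lay above WT in both Dnmt3l-KO libraries, as did 16.2% of all genes tested, and 5 overlapped. The 4 were Kat2a, both p300/CBP genes and Kat7, which is given below. Kat2a (chromosome 11, 100704746 to 100712485), the GCN5 enzyme of the SAGA coactivator complex, had 43.5 and 41.7 CPM in Dnmt3l-KO and 33.2 and 33.5 CPM in WT. Its log2 fold change was 0.35 ± 0.093 (SE) with a 95% interval from 0.12 to 0.59, and its unadjusted p of 0.0122 was the smallest of the set (edgeR, adjusted p = 0.999). Kat2b, its paralog PCAF, had 12.4 and 20.6 CPM in Dnmt3l-KO and 17.1 and 17.5 CPM in WT. The Dnmt3l-KO libraries lay on either side of WT, and their log2 difference of 0.74 was the largest between replicates of that genotype in the set. Crebbp (chromosome 16, 4081334 to 4213957), the coactivator CBP, had 111 and 117 CPM in Dnmt3l-KO and 97.4 and 89.7 CPM in WT. For Crebbp the log2 fold change was 0.28 ± 0.094 (SE), with an unadjusted p of 0.0291. Its paralog Ep300 had 84.6 and 87.8 CPM in Dnmt3l-KO and 74.1 and 75.7 CPM in WT. Its difference was 0.20 ± 0.085 (SE) on the log2 scale, with an unadjusted p of 0.064. After the length and GC correction the log2 fold changes were 0.13 for Crebbp and 0.066 for Ep300.

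Of the 5 MYST enzymes, 4 overlapped between the genotypes. Kat7, or HBO1, which acts at replication origins and is the most abundant of them, had 71.8 and 68.3 CPM in Dnmt3l-KO and 63.2 and 63.0 CPM in WT, with a log2 fold change of 0.15 ± 0.087 (SE). Kat6b, or MORF, the least abundant, had 17.7 and 21.9 CPM in Dnmt3l-KO and 19.3 and 16.3 CPM in WT. Kat7 did not overlap between the genotypes and Kat6b did. The log2 fold change was 0.038 for Kat5, the TIP60 enzyme of DNA repair, 0.044 for Kat6a, known as MOZ, and -0.075 for Kat8, the MOF enzyme of dosage control in flies, and the genotypes overlapped for all of them.

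Both BET readers, which bind acetylated histones through paired bromodomains, lay above WT in both Dnmt3l-KO libraries (16.2% of all genes tested), but Brd2 by a narrow margin. Brd2 had 224 and 182.5 CPM in Dnmt3l-KO and 182.2 and 181.5 CPM in WT, so the difference came from Dnmt3l-KO replicate 1. Without that library its log2 fold change was 0.0029. Brd3 had 54.8 and 52.8 CPM in Dnmt3l-KO and 48.7 and 45.2 CPM in WT, a difference of 0.20 ± 0.096 (SE) on the log2 scale with an unadjusted p of 0.0965 (edgeR, adjusted p = 0.999).

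**Figure D4:**
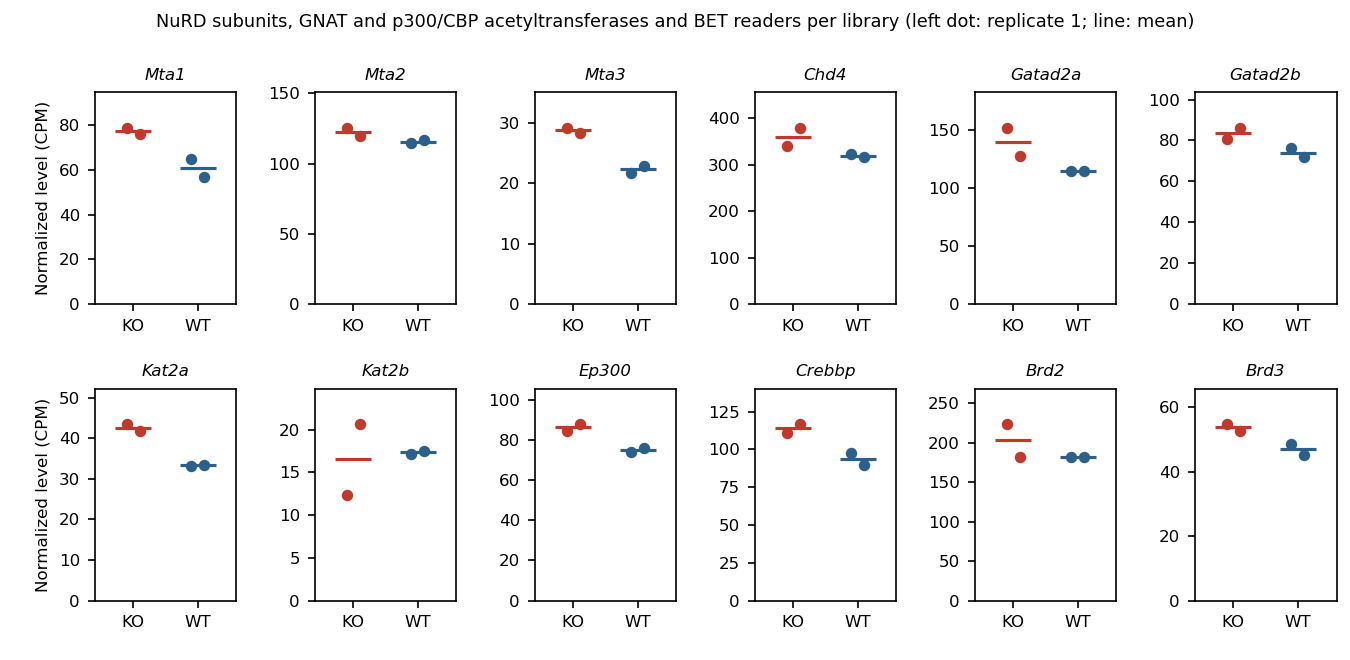
Normalized level in CPM (y axis, from 0) of the NuRD subunits, the GNAT and p300/CBP acetyltransferases and the BET readers, with Dnmt3l-KO (red) left of WT (blue). Each dot is a library and each line a mean of 2. In every panel except Kat2b both red dots lie above both blue dots, for Brd2 by a margin that the axis barely resolves. Only these classes are drawn: over the whole set this held for 16 of 38 genes, and for 16.2% of all genes tested.

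Summed over all 38 genes, the level was 578 and 603 FPKM in Dnmt3l-KO, against 513 and 555 FPKM in WT, with a ratio of 1.11 between the means. On the log2 FPKM scale (limma, pseudocount of 1), 59.7% of all genes tested had a log2 fold change above 0, against 51.3% with edgeR on counts. The part of that shift in the sums was not tested. Both Dnmt3l-KO sums lay above both WT sums for NuRD, the GNAT and p300/CBP acetyltransferases, the BET readers and the sirtuins, and the other 6 classes overlapped. The sum of the sirtuins follows Sirt2, and without it the log2 ratio was -0.0078. Replicates were not equally close in the genotypes. The median absolute log2 difference between replicates was 0.15 in Dnmt3l-KO and 0.053 in WT, and it exceeded the log2 fold change between the genotypes in 24 of the 38 genes in Dnmt3l-KO and in 12 in WT.

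Single transcripts of some of these genes had larger fold changes than the genes. Of the 306 transcripts with a count, 156 have an adjusted p in the authors' deposited table, which calls 1 of them, where 0.441% of all its transcripts are called. That transcript is a predicted Crebbp variant, XM_006521752.1. It had 701 and 583 counts in the Dnmt3l-KO libraries and 75 and 138 counts in the WT libraries, or 12.3% and 2.66% of the gene's counts on average. Its log2 fold change in the authors' deposited table is 1.77 with an adjusted p of 5.84e-05. For the same transcript the edgeR test gave 2.52 ± 0.43 (SE) with an unadjusted p of 0.0027, and called 0 of 230 member transcripts (0.00252% of all transcripts called). Without this transcript the log2 fold change of Crebbp as a whole was 0.13.

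A predicted Hdac4 variant, XM_006529308.1, had 694 and 767 counts in Dnmt3l-KO and 145 and 287 counts in WT, which is 36.8% and 13.1% of the gene. Its adjusted p in the authors' deposited table is 0.068, and without it the Hdac4 log2 fold change was -0.22, against 0.24 with it. The Kat2a transcript NM_020004.5 had 720 and 637 counts in Dnmt3l-KO and 321 and 439 counts in WT, and the gene's log2 fold change without it was 0.17. These 3 transcripts, and the Hdac9 and Hdac1 variants named next, were picked after their values had been seen. The Hdac9 variant NM_001271386.1 had 34 and 63 counts in Dnmt3l-KO and 0 and 0 counts in WT, while the Hdac9 transcript NM_024124.3 had 68 and 19 counts in Dnmt3l-KO and 13 and 128 counts in WT. The Hdac1 variant XM_006537010.1 had 1423 and 7 counts in Dnmt3l-KO and 14 and 31 counts in WT, so it was abundant in 1 library only, while the gene's total was even. NM_199198.2, the leading transcript of Hdac10, received 68.7% of the gene's counts in Dnmt3l-KO and 43.5% in WT. In all, 17 member transcripts had an edgeR unadjusted p under 0.05, 11 higher and 6 lower in Dnmt3l-KO, which is 7.39% of those tested, against 4.12% of all transcripts. A single transcript held more than 50% of the counts in 25 of the 38 genes and more than 90% in 8. The sources used here do not say how reads shared between transcripts of a gene were divided, and the part of that step in these shares was not tested.

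**Figure D5:**
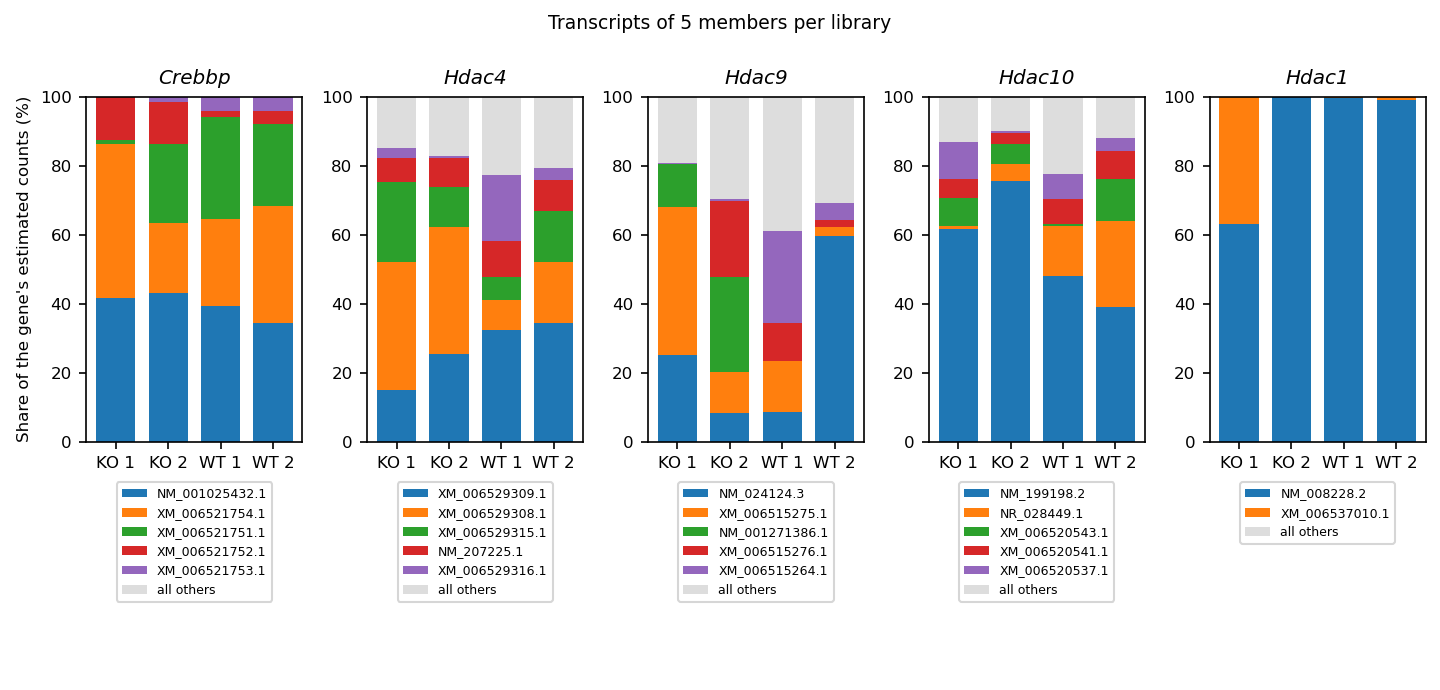
Share of each gene's estimated counts (y axis, percent) assigned to its 5 leading transcripts, or to fewer where it has fewer, per library for Crebbp, Hdac4, Hdac9, Hdac10 and Hdac1. Dnmt3l-KO libraries stand left of WT. The red segment of Crebbp is 12.3% of the counts in Dnmt3l-KO and 2.66% in WT on average, and the orange segment of Hdac1 is large in Dnmt3l-KO replicate 1 alone.

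Some counts could include reads of other genes. In 12 of the 38 genes, exons share bases with a gene on the other strand, and the sources used here do not say whether the counting used strand. The shares were largest for Hdac4 with Gm26720 (22.4% of exon bases), Hdac11 with Gm44002 (15.4%) and Kat5 with Rnaseh2c (12.1%). Hdac1 has a processed pseudogene, Gm10093, that is 99.4% identical over 1444 bases, and Kat2b has Kat2b-ps, 95.1% identical over 2479 bases. These copies have no row of their own in the table, so the levels of Hdac1 and Kat2b may hold some of their reads.

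No gene of the wider acetylation machinery passed the test either. Of 119 further genes listed by function, 116 passed the expression filter and 0 were called, where 0.0203% of all genes were called. At an unadjusted p under 0.05, 5 were higher in Dnmt3l-KO (2.34% of all genes) and 1 was lower (1.81% of all genes). Their median log2 fold change was 0.046, against 0.0062 for all genes. Among 35 other subunits of deacetylase complexes, Mbd3, the NuRD subunit that resembles methyl-CpG binding proteins, had 73.6 and 62.5 CPM in Dnmt3l-KO and 52.0 and 52.2 CPM in WT. The log2 fold change of Mbd3 was 0.38 ± 0.11 (SE), with an unadjusted p of 0.0193 (edgeR, adjusted p = 0.999), and both Dnmt3l-KO libraries were higher. Other NuRD subunits of that list went different ways. Mbd2 lay above WT in both Dnmt3l-KO libraries, with a log2 fold change of 0.28. Rbbp4 lay below WT in both, with 211 and 195 CPM in Dnmt3l-KO and 240 and 223 CPM in WT. Rbbp7, Chd3 and Cdk2ap1 overlapped between the genotypes.

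Among 44 other subunits of acetyltransferase complexes, Trrap, the large scaffold of SAGA and TIP60, had 212 and 199.99 CPM in Dnmt3l-KO and 169 and 167 CPM in WT, while Tada1 of SAGA had 18.2 and 18.7 CPM in Dnmt3l-KO and 21.2 and 23.7 CPM in WT. Their log2 fold changes were 0.29 and -0.28. Of 24 other readers tested, the YEATS reader Mllt1 had 48.0 and 45.9 CPM in Dnmt3l-KO and 37.8 and 40.2 CPM in WT. Both Dnmt3l-KO libraries lay above WT for Mllt1, with a log2 fold change of 0.27 ± 0.097 (SE). After the length and GC correction Mbd3, Trrap, Tada1 and Mllt1 each had an unadjusted p above 0.05. Of the 13 tested genes that supply acetyl-CoA and NAD, 0 had an unadjusted p under 0.05, and their median log2 fold change was 0.017. The smallest p among them was that of Pank2, a kinase of coenzyme A synthesis, with 42.0 and 40.6 CPM in Dnmt3l-KO and 45.1 and 46.9 CPM in WT. Some were measured too loosely to be called even. The 95% interval of the log2 fold change ran from -0.82 to 1.10 for Acss2 and from -1.07 to 1.10 for Naprt.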

How the data were processed

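RNA depleted of ribosomal RNA and primed with random primers was sequenced from 2 Dnmt3l-KO and 2 WT libraries, per the labels' protocols. Per the submitters' processing notes, DESeq2 1.8.0, eXpress 1.4.1, Cufflinks 2.2.1 and TopHat2 2.0.12 were used on mm10, in roles that the sources used here do not state. The authors deposited, per the file headers, FPKM values and estimated counts of RefSeq transcripts in each library. The deposited comparison columns hold, over all libraries, a p-value, its adjusted form, a log2 fold change, the standard error of that change, a test score and a mean signal. All deposited estimated counts were whole numbers.

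Counts and FPKM were summed per gene symbol, taken from each transcript's description. After edgeR's expression filter, 14760 symbols were tested with edgeR 4.0.16 in R 4.3.3 (TMM, robust quasi-likelihood F-test, Benjamini-Hochberg adjustment over all of them, threshold 0.05), and standard errors were derived from the F statistic. The 38 genes and the lists beside them were chosen with earlier results of these data known. All 38 are named, and values per library are given for the highest and lowest of each class, those at an unadjusted p under 0.05 and those that do not overlap between the genotypes. Of other acetylation genes, at most 2 with the smallest p of each list are named, plus further NuRD subunits and the loosely measured Acss2 and Naprt. Results of some genes are left out. Levels between genes are compared in FPKM.

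Total counts were 51465395 and 40681328 in Dnmt3l-KO and 47776612 and 41049869 in WT. A floor of 3 counts comes to 0.0601 to 0.0719 CPM and covers counting error only, because PCR copies of a read are no separate molecules. Copies were sought with BLAST 2.17.0 among GENCODE M21 transcripts, at 90% identity or more over at least 80% of the copy. Positions and promoters are from RefSeq, GRCm38.p6, the same build as mm10.

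Alternatives were RLE, upper quartile and total-count scaling, no filter, a filter on CPM, DESeq2 1.42.0, limma 3.58.1 (voom, and log2 FPKM with a pseudocount of 1 or 0.1), leaving out each library, a block for the replicate number, and transcripts as features. A correction for the GC content and length of transcripts, made per library (loess, span 0.4), and fits without 1 transcript of Crebbp, Hdac4 or Kat2a were chosen after seeing the data.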

Additional observations from a re-analysis of the deposited data

How the results depend on the processing

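Under 19 alternatives, 611 values of the 38 genes gave 0 calls, and the smallest adjusted p was 0.254 (Gatad2a, with a Dnmt3l-KO library left out). The further acetylation genes gave 0 calls under the 16 alternatives run on them. The count of all genes called was 3, against 8 with no filter, 31 with DESeq2, 6 and 9 with limma on log2 FPKM (pseudocounts of 1 and 0.1), 1 with transcripts as features, and 2 to 6 with a library left out. Of the 611 values, 49 had the opposite sign, spread over 20 genes, none of them called. The 18 genes that kept their sign include the 6 NuRD subunits, Crebbp, Ep300, Kat2a, Brd2 and Brd3. In each of these named genes both Dnmt3l-KO libraries lay above both WT libraries, so the sign with a library left out was largely fixed beforehand. The log2 ratio of the summed level of all 38 genes was 0.15 and ran from 0.089 to 0.20 with a library left out; for NuRD it was 0.26 in FPKM and 0.20 in CPM. The same replicate number in the genotypes gave a correlation of deviations of 0.0999, under the limit for pairing, so the numbers are only shared; with the replicate block 4 genes in all and 0 of the 38 were called. Summing near-identical copies gave no value, because the table has no row for them. Precision was limited by the 2 libraries of each genotype, with a median SE of 0.11 on the log2 scale. Where a library is left out, the lone library is assumed to vary like the other genotype.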
